A study of Mus musculus with 8 samples.

Results

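The muscle genes described here are Myog, Myod1, Myf5, Actc1, Tnnt2, Myh3, Des, Tnni1, Tnnt1 and Acta1, 10 of the 26212 genes of the annotation. They were chosen by name as regulators and sarcomere genes of skeletal and heart muscle, several of which are lower in expression in menin-null pancreatic islet-like endocrine cells (PILECs) by the arrays of the study, and with earlier results of these data known. For each gene the tags of H3K4me3 ChIP-Seq and of input chromatin within 1 kb of its transcriptional start site (start) were counted in all 8 libraries. In PILECs, whether wild type (wt) or menin-null, the mark at these starts was at or below the level of the input within counting error at all 10 genes. Summed over the 10, H3K4me3 was 0.827-fold of the input in wt and 0.96-fold in menin-null PILECs. From 10 kb to 2 kb before these starts it was lower, 0.545-fold and 0.597-fold. The summed level of the 10 starts in menin-null PILECs was 1.09-fold that in wt PILECs (95% interval 0.876 to 1.35). Subtracting the input gene by gene, with genes below their input counted as holding no tags, left few tags, with a log2 ratio of -0.61. That value rests only on the genes above their input. In mouse embryonic stem cells (mESCs) only Myod1 and Des carried H3K4me3 at least 2-fold over input at their starts in both genotypes, and Acta1 carried it 2 to 4 kb downstream of its start in all 4 H3K4me3 libraries. Of 18 further myogenic regulators 13 were at least 2-fold over input in each PILEC library, beside 59.2% (wt) and 58.7% (menin-null) of all genes. Here and below, shares of all genes marked, lower or higher are of those with at least 10 tags in the 2 libraries, unless stated. Of the 18, 7, among them Pax3 and Lbx1, were lower in the menin-null than in the wt PILEC library by more than counting error, beside 20.1% of all genes. Of 11 fibroblast and feeder markers 6 were also lower in the same comparison and 2 were higher, beside 20.1% and 5.08% of all genes. The part of these markers in the lower mark of the regulators was not tested.

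The libraries came from wt mESCs (line TC-1), from Men1-ko (menin-null) mESCs of the single line 3.2N, both of the 129S6/SvEvTac background, and from PILECs differentiated in vitro from each of these lines. The mESCs were grown with leukemia inhibitory factor on irradiated feeder cells, which were then depleted. For PILECs this factor was withdrawn, and serum-free media followed, first with FGF-β and later with nicotinamide in its place. A comparison of PILECs with mESCs therefore includes these treatments. The paper gives no dose or treatment that differed between the genotypes. There was 1 H3K4me3 library and 1 input for each of these 4 cell populations, so a difference between libraries has no replicate check, and no p-value is given. All intervals and limits given here are 95% limits for counting error only, and they compare libraries and not conditions. A PILEC culture is a mixture of cells, in which fewer marked cells and less mark per cell cannot be told apart.

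H3K4me3 is a histone mark found at the starts of genes that are active or poised for activation, and it is placed by complexes of the MLL family, some of which contain menin. Myod1 and Myf5 encode the transcription factors that commit cells to the skeletal muscle lineage, and Myog encodes the factor that drives their terminal differentiation. The sarcomere, the contractile unit, holds thin filaments of actin (Acta1 in skeletal muscle, Actc1 in the heart and in embryonic muscle), troponins that make them respond to calcium (Tnni1 and Tnnt1 in slow skeletal fibres, Tnnt2 in the heart) and thick filaments of myosin (Myh3 in embryonic muscle). Des encodes desmin, the intermediate filament that links neighbouring myofibrils. In stem cells, promoters rich in CpG dinucleotides often carry H3K4me3 before the gene is used, and CpG-poor promoters of tissue-specific genes often do not.

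The promoters are shown first to set the CpG content of Myod1 and Des, which were marked in mESCs, beside that of members that were not. Each run below covers 220 bases before the start and 30 bases from it on, 5′ to 3′ on the strand of the gene, read from mm9, with every CpG in capitals. RefSeq promoters (build GRCm38.p6) gave the starts of Des, Myog, Actc1 and Tnnt2 by an exact match to mm9, as for 9 of the 10 members, and the annotation gave those of Myod1 and of Pax3, an upstream regulator shown for contrast. Where RefSeq gave several starts of a gene, as for Tnnt2 and Tnni1, the one with most H3K4me3 was used.
Myod1, chr7:53631624-53631873, plus strand: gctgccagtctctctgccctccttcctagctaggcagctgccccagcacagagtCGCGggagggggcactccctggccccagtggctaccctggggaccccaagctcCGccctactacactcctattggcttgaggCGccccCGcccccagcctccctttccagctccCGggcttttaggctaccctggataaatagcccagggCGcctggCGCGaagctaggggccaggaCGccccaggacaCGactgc
Des, chr1:75356647-75356896, plus strand: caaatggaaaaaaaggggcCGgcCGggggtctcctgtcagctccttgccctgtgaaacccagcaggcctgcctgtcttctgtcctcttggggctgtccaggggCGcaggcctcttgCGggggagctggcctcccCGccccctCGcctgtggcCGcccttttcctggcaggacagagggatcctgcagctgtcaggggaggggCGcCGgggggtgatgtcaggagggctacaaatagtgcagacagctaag
Myog, chr1:136186361-136186610, plus strand: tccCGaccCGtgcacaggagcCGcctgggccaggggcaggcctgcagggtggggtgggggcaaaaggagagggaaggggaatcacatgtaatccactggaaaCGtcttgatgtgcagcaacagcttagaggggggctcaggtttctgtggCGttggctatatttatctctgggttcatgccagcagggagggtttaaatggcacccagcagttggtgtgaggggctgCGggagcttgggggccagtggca
Actc1, chr2:113878582-113878831, minus strand: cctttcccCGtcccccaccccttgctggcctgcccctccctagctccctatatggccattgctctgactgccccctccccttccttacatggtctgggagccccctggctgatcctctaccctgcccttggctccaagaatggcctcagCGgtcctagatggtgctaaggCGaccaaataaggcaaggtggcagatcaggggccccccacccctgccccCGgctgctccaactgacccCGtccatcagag
Tnnt2, chr1:137733346-137733595, plus strand: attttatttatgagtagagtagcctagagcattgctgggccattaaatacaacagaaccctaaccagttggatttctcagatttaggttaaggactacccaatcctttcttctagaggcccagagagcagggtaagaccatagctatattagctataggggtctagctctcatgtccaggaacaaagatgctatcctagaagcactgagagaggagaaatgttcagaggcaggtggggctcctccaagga
Pax3, chr1:78193384-78193633, minus strand: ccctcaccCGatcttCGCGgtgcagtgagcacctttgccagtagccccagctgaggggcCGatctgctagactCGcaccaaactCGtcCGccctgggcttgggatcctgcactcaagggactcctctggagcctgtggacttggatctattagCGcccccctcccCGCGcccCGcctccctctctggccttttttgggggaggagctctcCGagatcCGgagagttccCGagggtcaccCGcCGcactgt

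The windows of 250 bases held 11 CpG at Myod1, 9 at Des, 6 at Myog, 5 at Actc1, 0 at Tnnt2 and 16 at Pax3. Acta1, whose start was not marked in mESCs, also held 11 in its window, as many as Myod1 and more than Des, so the number in this window did not separate marked from unmarked starts. Over the 1000 bases centred on the start, the ratio of observed to expected CpG was 0.661 at Des and 0.481 at Myod1, the highest values of the 10 members. It was 0.405 at Myf5 and 0.354 at Myog, and it lay between 0.12 at Tnni1 and 0.254 at Acta1 in the other sarcomere genes. In 9 of the 10 members it was below 0.539, the median of all 26212 genes, and only Des reached 0.6, a level that 45.1% of all genes reached. The letters of the E-box, CANNTG, which muscle regulators of the Myod1 family bind, were found in 8 of the 10 windows and in 62.1% of windows of the same length at the annotated starts of all genes. The E-box CAGCTG, which is included in CANNTG, was found at Myod1, Des and Tnni1, in 3 of 10 windows against 13% of all. TATAAA was found in 4 of 10 windows against 10.5%, the CArG box bound by serum response factor in 2 of 10, Actc1 and Acta1, against 1.12%, and the MEF2 box in 0 of 10 against 2.41%. The MEF2 box was searched only as YTAWWWWTAR, where Y is C or T, W is A or T and R is A or G. Runs that depart from this form were not counted, such as ctatatttat at Myog, which departs in its last base. With the members also taken at their annotated starts, CANNTG was found in 7 of 10 and the CArG box in 1 of 10, Acta1, and the other 3 counts were the same. Both strands were searched, and a match is a description of the letters in the window.

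The genes lie on 6 chromosomes in mm9. Myog (ENSMUSG00000026459.4) lies at chr1:136186581-136189124 on the plus strand, Myod1 (ENSMUSG00000009471.3) at chr7:53631844-53634462 on the plus strand, and Myf5 (ENSMUSG00000000435.1) at chr10:106919964-106923190 on the minus strand, with the start of its neighbour Myf6 8595 bp away. Actc1 (ENSMUSG00000068614.7) lies at chr2:113873018-113879284 on the minus strand, with the start of C130080G10Rik 787 bp from its own, so that tags at these 2 starts cannot be told apart. Des (ENSMUSG00000026208.9) lies at chr1:75356904-75365154 on the plus strand, Myh3 (ENSMUSG00000020908.7) at chr11:66891802-66915793 on the plus strand, Tnni1 (ENSMUSG00000026418.10) at chr1:137679642-137707566 on the plus strand, and Tnnt1 (ENSMUSG00000064179.6) at chr7:4456172-4467984 on the minus strand. Acta1 (ENSMUSG00000031972.3) lies at chr8:126415669-126418651 on the minus strand. Tnnt2 (ENSMUSG00000026414.6) is annotated at chr1:137737452-137748837 on the plus strand, but its RefSeq starts, 137732911 and 137733566, lie upstream of the annotated one by over 2 kb. The RefSeq start used, 137733566, was the one with more H3K4me3. The annotated and RefSeq starts of Tnnt2 and of Actc1, whose RefSeq start lies 673 bp downstream of the annotated one, are reported below.

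The H3K4me3 libraries held 2432377 to 18773635 tags and the inputs 3744616 to 19016697, and the PILEC libraries were the deeper ones. Over exons 3 to 8 of Men1, the targeted gene, the wt inputs held 17 tags (mESCs) and 22 tags (PILECs) and both menin-null inputs held 0, where a count of 0 allows up to 3 tags. Between 40.1% and 51.4% of the tags of the H3K4me3 libraries lay within 1 kb of an annotated start. Of 8 pluripotency genes, all 8 were at least 2-fold over input in mESCs of each genotype and 3 in PILECs of each genotype. Of 12 islet genes, 7 were so marked in mESCs of each genotype, among 9 (wt) and 8 (menin-null) with enough tags, and in PILECs 7 in the wt and 6 in the menin-null library. Of the genes with at least 10 tags in H3K4me3 and input together, 86.7% (14969 of 17268, wt) and 87.1% (14911 of 17118, menin-null) were so marked in mESCs. In PILECs 59.2% (14666 of 24753, wt) and 58.7% (14524 of 24760, menin-null) were. More genes reached the minimum of tags in PILECs, so these shares do not compare the stages.

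In mESCs, Myod1 and Des stood out from the other members. Myod1 had 21 H3K4me3 tags within 1 kb of its start in wt mESCs (8.63 RPM, tags per 1000000 tags of the library) and 24 in menin-null mESCs (6.82 RPM), over 13 and 6 input tags (3.06 and 1.60 RPM). Its H3K4me3 was thus 2.74-fold over input in wt mESCs (log2 1.46, interval 0.43 to 2.62) and 3.80-fold in menin-null mESCs (log2 1.93, interval 0.76 to 3.67). Des had 22 H3K4me3 tags in wt mESCs (9.04 RPM) and 29 in menin-null mESCs (8.25 RPM), over 9 and 6 input tags. That was 4.02-fold over input in wt mESCs (log2 2.01, interval 0.92 to 3.40) and 4.56-fold in menin-null mESCs (log2 2.19, interval 1.07 to 3.92). Both genes were above their inputs in both genotypes, at a level near the median of all genes, 9.46 RPM in wt mESCs and 9.38 RPM in menin-null mESCs.

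Each of the other 8 members had 0 to 6 H3K4me3 tags in an mESC library. Myog had 4 tags in wt mESCs and 3 in menin-null mESCs (1.64 and 0.853 RPM), over 9 and 15 input tags. Actc1 had 0 and 1, where a count of 0 allows up to 3 tags or 1.23 RPM in wt mESCs, over 4 input tags in each genotype. These numbers are too small to rank the genes. Myf5 had 2 H3K4me3 tags in wt mESCs and 6 in menin-null mESCs, and its ratio to the input, 2.48-fold in menin-null mESCs, had an interval that held 0 on the log2 scale (-0.81 to 5.02). Tnnt2 had 2 and 2 tags, Myh3 4 and 2, Tnni1 4 and 2, Tnnt1 6 and 5, and Acta1 3 and 2, in wt and menin-null mESCs. Summed over these 8 genes, H3K4me3 was 0.78-fold of the input in wt mESCs (25 and 56 tags, interval 0.466 to 1.27) and 0.401-fold in menin-null mESCs (23 and 61 tags, interval 0.237 to 0.658). From 10 kb to 2 kb before the starts of the 10 members it was 0.401-fold in wt and 0.486-fold in menin-null mESCs. In windows of 2 kb over 10 kb from any annotated gene it was 0.589-fold and 0.463-fold. Of the genes with at least 10 tags in H3K4me3 and input together, 86.7% were at least 2-fold over input in wt mESCs and 87.1% in menin-null mESCs. Among the members 7 passed this minimum in wt mESCs and 6 in menin-null mESCs, and 2 in each, Myod1 and Des, were at least 2-fold over input.

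**Figure D1:**
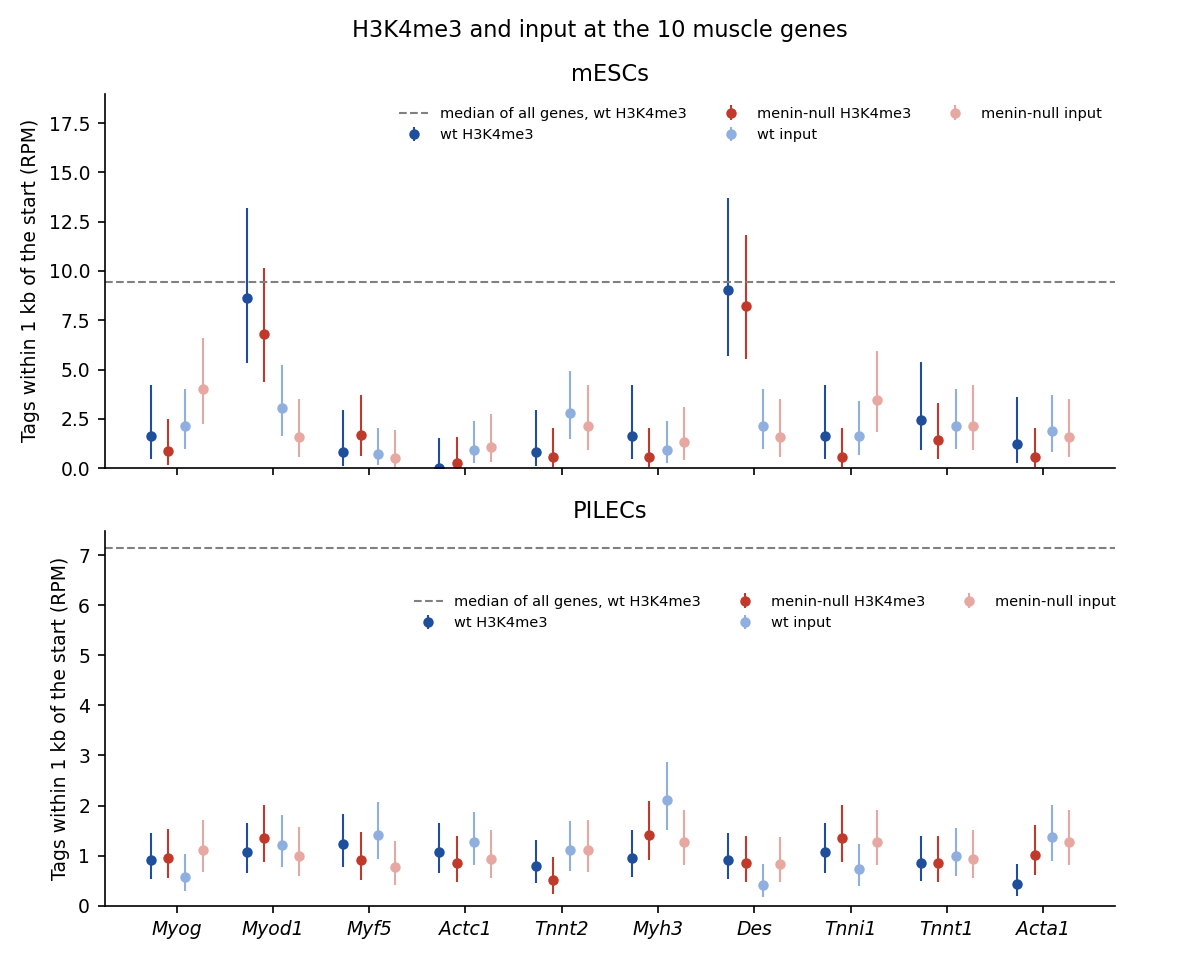
Tags within 1 kb of the start (RPM, linear axes that start at 0) of H3K4me3 and input at the 10 muscle genes, with 95% Poisson intervals, in mESCs and in PILECs, 1 library per point. Myod1 and Des lie near the median of all genes (dashed, 9.46 RPM) in mESCs, and all 10 genes lie far below it (7.14 RPM) in PILECs.

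In PILECs none of the 10 members was clearly above its input. The 10 genes had 8 to 23 H3K4me3 tags each in wt PILECs and 9 to 25 in menin-null PILECs, against 8 to 40 and 14 to 23 input tags. The median member had 0.932 RPM in wt PILECs and 0.933 RPM in menin-null PILECs, where the median of all genes was 7.14 and 6.05 RPM. Between 17.0% and 41.8% of all genes had fewer H3K4me3 tags than a member in wt PILECs, and between 19.2% and 43.1% in menin-null PILECs. Among genes with enough tags, 59.2% in the wt and 58.7% in the menin-null PILEC library were at least 2-fold over input. All 10 members passed the minimum of tags in both libraries, and at least 2-fold over input were 1 in wt PILECs, Des, and 0 in menin-null PILECs.

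Myog had 17 H3K4me3 tags in wt and 17 in menin-null PILECs (0.906 and 0.961 RPM), over 11 and 20 input tags. Its H3K4me3 count was equal in both genotypes, and the ratio of its input counts had an interval that held 0 (log2 0.88, interval -0.20 to 2.14). Myod1 had 20 and 24 H3K4me3 tags over 23 and 18 input tags, and Myf5 had 23 and 16 over 27 and 14. Neither factor that commits cells to muscle was above its input in either genotype by more than counting error. Actc1 had 20 and 15 H3K4me3 tags over 24 and 17 input tags, and Tnnt2 15 and 9 over 21 and 20. Myh3 had 18 and 25 over 40 and 23, so that in wt PILECs it was below its input (log2 -1.09, interval -2.02 to -0.30). That wt input count of 40 was unusually high, above that of 99.7% of all genes. Tnni1 and Tnnt1, of the slow troponins, had 20 and 24 over 14 and 23, and 16 and 15 over 19 and 17, in wt and menin-null PILECs. Des, marked in mESCs, had 17 and 15 tags over 8 and 15 input tags, or 2.03-fold over input in wt PILECs (log2 interval -0.18 to 2.53) and 1.02-fold in menin-null PILECs. The wt input count of Des was low, above that of only 8.02% of all genes. Acta1 had 8 and 18 over 26 and 23, so that its start was below the input in wt PILECs (log2 -1.57, interval -3.04 to -0.50).

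**Figure D2:**
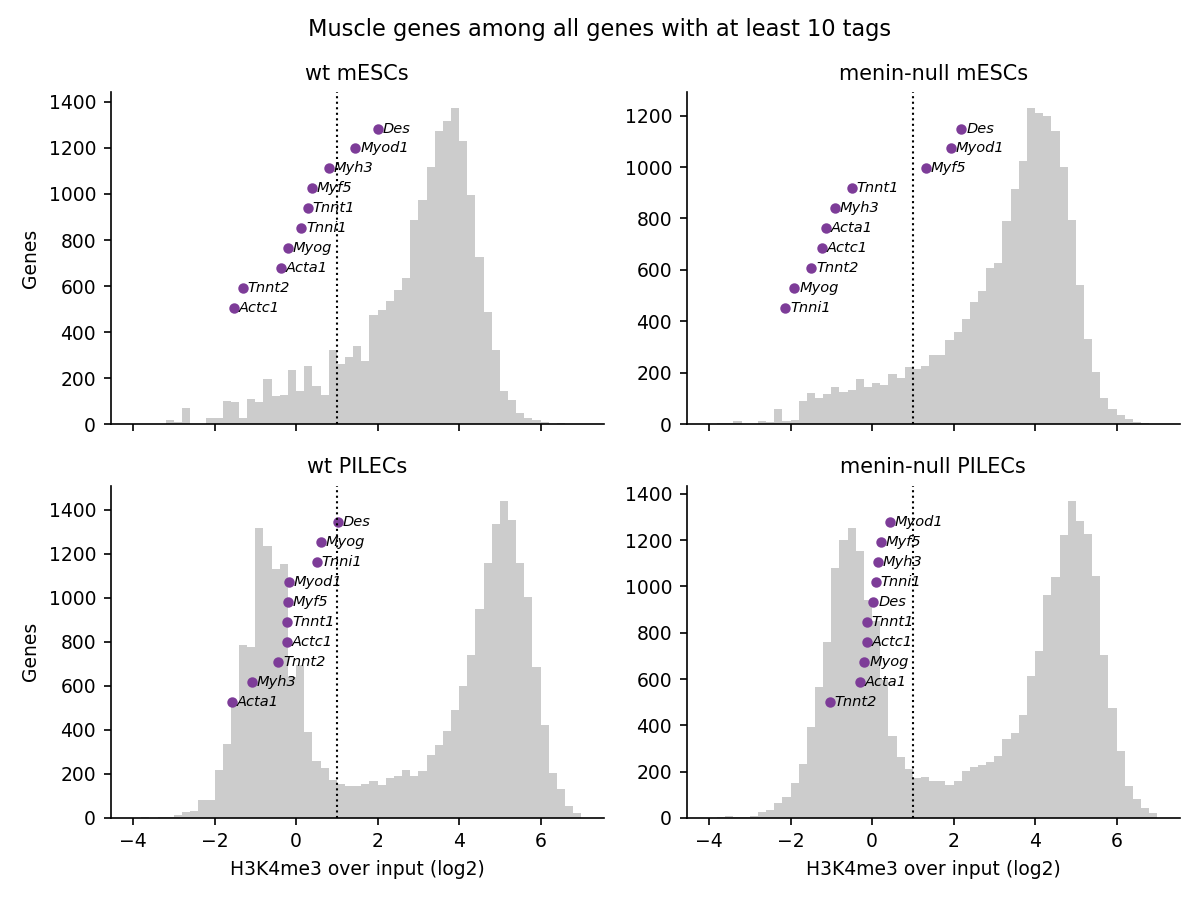
H3K4me3 over input (log2 ratio of RPM with 1 tag added) within 1 kb of the start in each kind of cell, for all genes with at least 10 tags (grey histogram, number of genes) and for the 10 muscle genes (points, spread vertically in order of value, with those under 10 tags included). The dotted line marks 2-fold, and in PILECs the members lie within or at the upper edge of the lower peak of all genes.

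An H3K4me3 library has a larger share of its tags near starts than its input, and sequence far from genes lay below the input in RPM. In 643285 windows of 2 kb that lay over 10 kb from any annotated gene, H3K4me3 was 0.529-fold of the input in wt PILECs and 0.562-fold in menin-null PILECs. From 10 kb to 2 kb before the starts of the 10 members it was 0.545-fold in wt PILECs (384 and 714 tags, interval 0.48 to 0.618) and 0.597-fold in menin-null PILECs (423 and 726 tags, interval 0.528 to 0.674). Within 1 kb of the starts it was 0.827-fold in wt PILECs (174 and 213 tags, interval 0.673 to 1.02) and 0.96-fold in menin-null PILECs (178 and 190 tags, interval 0.778 to 1.18). In both genotypes the interval at the starts lay above that of the upstream sequence and did not overlap it. Where a member had several starts, the one with most H3K4me3 had been chosen, and the upstream sequence had no such choice. At the 5′-most starts the 10 members had 158 tags in wt and 162 in menin-null PILECs, and the part of this choice in the difference was not tested. Without Myod1 and Des, the 8 other starts were at 0.762-fold in wt PILECs (interval 0.606 to 0.957), which overlapped the upstream interval, and at 0.907-fold in menin-null PILECs (interval 0.717 to 1.15), which did not. All 10 together, the muscle starts in PILECs thus lay between upstream sequence and the upper peak of marked genes.

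The mark lay farther from the start at Acta1 than at Myod1 and Des in wt mESCs. In 50 windows of 200 bp from 5 kb before to 5 kb after the start, a window was called marked where its tags reached a Poisson p of at most 1e-05 for the mean of the library, with no allowance for the input. In mESCs Myod1 had 2 marked windows in each genotype, within 400 to 800 bp after its start. Des had 2 in wt mESCs, within 0 to 600 bp after its start, and 4 in menin-null mESCs, of which the last ended 2000 bp after it. In PILECs neither gene had a marked window. Acta1 had marked windows in all 4 H3K4me3 libraries, 3 (wt) and 6 (menin-null) in mESCs and 5 (wt) and 6 (menin-null) in PILECs, and all of them lay between 1800 and 3200 bp after its start. None of the other 7 members had a marked window in any H3K4me3 library, and among the inputs there was 1, at Myog in wt mESCs.

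The stretch from 2 to 4 kb after the start of Acta1, chr8:126414652-126416651, was chosen after its values were seen. It covers the 3′ end of the gene and the sequence beyond it, and no start of an annotated gene counted here lies within 34542 bp of the start of Acta1. H3K4me3 had 173 tags there in wt PILECs (9.22 RPM) and 134 in menin-null PILECs (7.58 RPM), over 25 and 29 input tags. That was 6.78-fold over input in wt PILECs (log2 2.76, interval 2.20 to 3.48) and 4.61-fold in menin-null PILECs (log2 2.21, interval 1.66 to 2.88). In mESCs there were 27 tags in wt (11.1 RPM) and 46 in menin-null cells (13.1 RPM), over 15 and 20 input tags, 3.06-fold and 2.38-fold over input. The menin-null over wt ratio of the stretch was -0.28 on the log2 scale in PILECs (interval -0.62 to 0.05) and 0.22 in mESCs (interval -0.48 to 0.98), and both intervals held 0. The input itself was high in this stretch, where 3.20 and 2.82 tags per 2 kb were the means of the wt and menin-null mESC inputs and 14.3 and 13.7 those of the PILEC inputs. Chromosome 8, which carries Acta1, also held 6.61% of the input tags in wt mESCs and 7.55% in menin-null mESCs, a log2 difference of 0.19, and the part of these values in the mESC ratio was not tested.

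**Figure D3:**
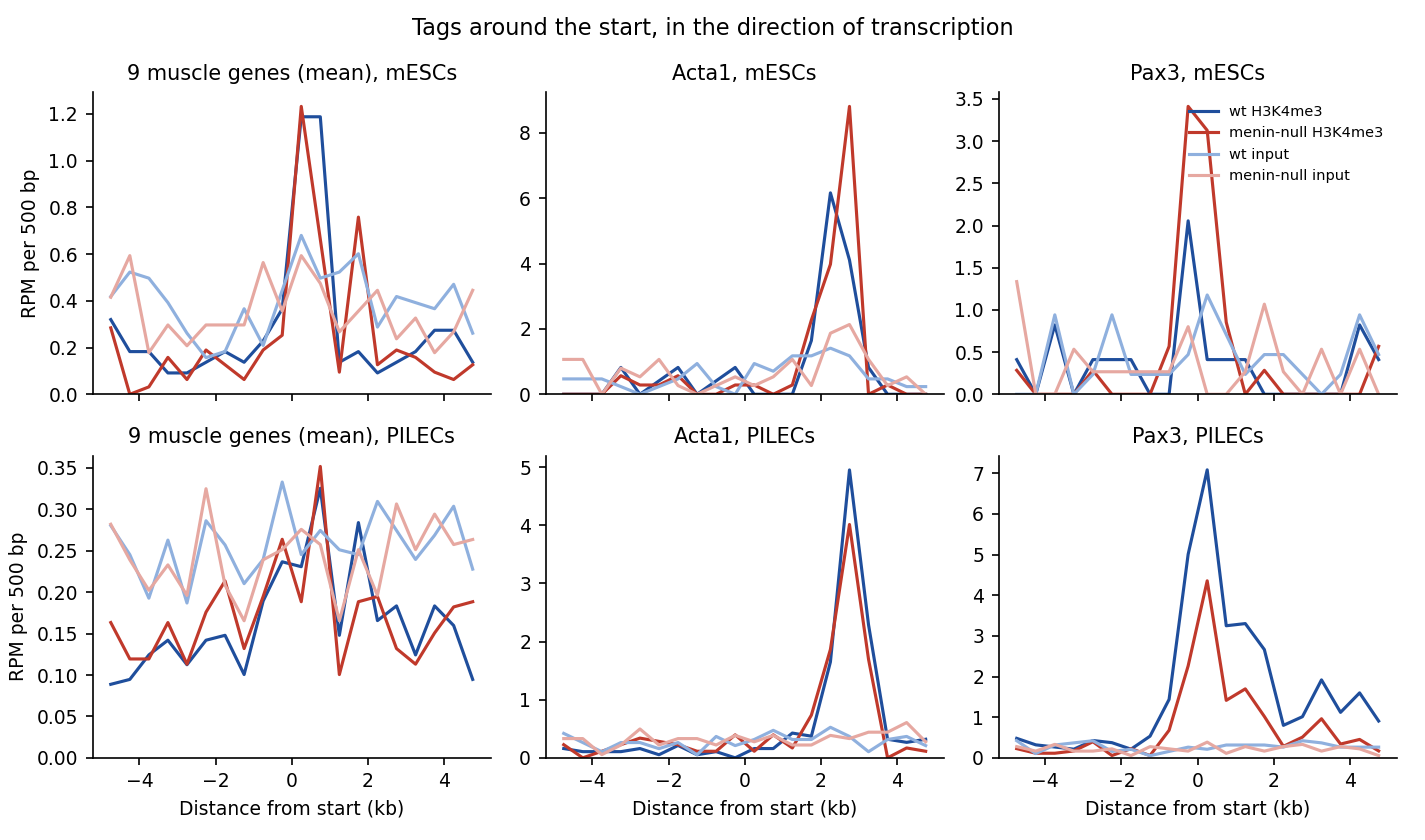
Tags per 500 bp (RPM, linear axes that start at 0 and differ between panels) from 5 kb before to 5 kb after the start, in the direction of transcription, for the mean of the 9 muscle genes other than Acta1, for Acta1 and for Pax3, in mESCs (top) and PILECs (bottom). The mark at Acta1 lies 2 to 4 kb after the start in all 4 H3K4me3 libraries, and that at Pax3 surrounds the start and is lower in menin-null PILECs (155 tags within 1 kb) than in wt PILECs (315).

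The comparison of menin-null with wt cells asked whether H3K4me3 at these starts depends on menin. In PILECs the 10 members together had 174 tags in wt and 178 in menin-null cells, or 9.27 and 10.1 RPM, a log2 ratio of 0.12 (interval -0.19 to 0.43). The inputs had 213 and 190 tags at the same starts, a log2 ratio of -0.10 (interval -0.39 to 0.19). The interval covers the counting error of all tags, and the share of them that is the mark was not separated. The input was also subtracted gene by gene, with genes below their input counted as holding no tags. The log2 ratio of the sum was then -0.61, from few remaining tags. That value rests only on the genes above their input, while both sums lay below theirs in RPM, so it gives no direction for the 10. The median log2 ratio of the members was 0.04, beside -0.06 for all 24032 genes with at least 10 tags. Of the 10 members 0 were at least 2-fold lower in menin-null PILECs, where 2.45% of all genes were, and 1, Acta1, was at least 2-fold higher, where 3.22% were. By the interval, 0 members were lower and 0 higher, where 20.1% of all genes lay below 0 and 5.08% above.

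Among single members in PILECs, Acta1 had the largest difference, 8 tags in wt and 18 in menin-null cells (log2 1.16), and its interval held 0 (-0.02 to 2.67). It lay above 0 when the libraries were scaled by the tags near starts (log2 1.26, interval 0.07 to 2.76) or with the median of all genes at 0 (log2 1.23, interval 0.05 to 2.73). Both values lay below the input in RPM, as given above. Tnnt2 had the lowest ratio, with 15 and 9 tags at its annotated start (log2 -0.59, interval -2.02 to 0.64). At the RefSeq start of Tnnt2, an alternative chosen after seeing the data, 21 tags in wt PILECs (1.12 RPM) stood against 7 in menin-null PILECs (0.396 RPM), with 20 and 23 input tags. There the log2 ratio was -1.37, and its interval lay below 0 (-2.98 to -0.21), at a level in wt PILECs that equalled the input. This start was kept over another RefSeq start, 137732911, because it had more H3K4me3 tags. At that other start the counts were 16 in wt and 6 in menin-null PILECs over 17 and 17 input tags, and no interval was computed. The windows of these RefSeq starts overlap, so their counts are not independent of each other. At the RefSeq start of Actc1 the counts were 15 in wt and 14 in menin-null PILECs (log2 -0.01, interval -1.17 to 1.14). The log2 ratio was 0.09 at Myog (interval -0.97 to 1.15), 0.34 at Myod1 (interval -0.57 to 1.28), -0.41 at Myf5 (interval -1.46 to 0.55; within 2 kb -0.84, interval -1.76 to -0.04) and -0.31 at Actc1 (interval -1.40 to 0.71). It was 0.54 at Myh3 (interval -0.37 to 1.52), -0.08 at Des (interval -1.20 to 1.00), 0.34 at Tnni1 (interval -0.57 to 1.28) and -0.0011 at Tnnt1 (interval -1.13 to 1.10). At their depth of 8 to 25 tags, 2-fold changes of single genes lay within or near most of these intervals.

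In mESCs the 10 members together had 68 tags in wt and 76 in menin-null cells, or 28.0 and 21.6 RPM, a log2 ratio of -0.37 (interval -0.86 to 0.12). This depended on the scaling and the window. The log2 ratio was -0.58 with the median of all genes at 0 (interval -1.07 to -0.09) and -0.61 when scaled by the tags near starts (interval -1.10 to -0.12), and both intervals lay below 0. It was -0.09 within 500 bp (interval -0.74 to 0.58) and -0.10 within 2 kb (interval -0.51 to 0.31). Only Myod1, Des and Tnnt1 had the 10 tags needed for a call. The log2 ratio was -0.35 at Myod1 (interval -1.25 to 0.58), -0.15 at Des (interval -0.98 to 0.74) and -0.75 at Tnnt1 (interval -2.85 to 1.18). None of these 3 was at least 2-fold lower, where 2.02% of 16171 genes were, or at least 2-fold higher, where 1.27% were. None had an interval below 0, where 2.03% of genes did, or above 0, where 24.3% did. The median log2 ratio of all genes was 0.21, so these ratios were lower relative to it. The difference between the stages in the menin-null over wt ratio, PILECs minus mESCs, was 0.49 for the sum (interval -0.07 to 1.05). It was 0.77 with the median of all genes at 0 (interval 0.21 to 1.33) and 0.82 when scaled by the tags near starts (interval 0.26 to 1.38), and 0.14 within 500 bp (interval -0.62 to 0.90) and within 2 kb (interval -0.31 to 0.60). For each of the 10 members its interval held 0, from the narrowest, at Myod1 (0.69, interval -0.49 to 1.86), to the widest, at Actc1 (-0.77, interval -4.36 to 2.81).

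**Figure D4:**
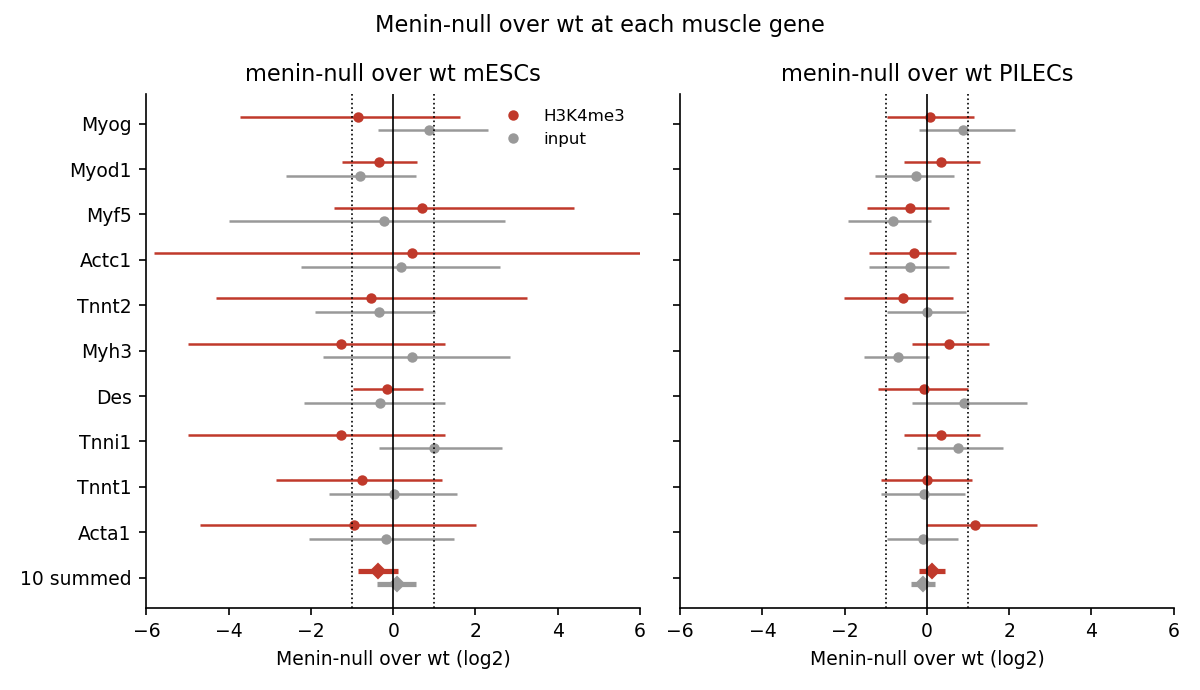
Menin-null over wt log2 ratio of RPM within 1 kb of the start for each muscle gene and for the 10 summed (diamonds), of H3K4me3 (red) and of input (grey), with 95% intervals for counting error, drawn to 6 at most. Scaled to all tags, every H3K4me3 interval holds 0, and the sum of the 10 lies at -0.37 in mESCs and 0.12 in PILECs.

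Myog, Actc1, Tnnt2, Myh3 and Tnni1 are on the list of genes that expression arrays gave as lower in menin-null PILECs, and Myod1, Myf5, Des, Tnnt1 and Acta1 are not. The array list came from the same kinds of cells, so it is not independent of them. The 5 listed members had 90 H3K4me3 tags in wt and 90 in menin-null PILECs, a log2 ratio of 0.09 (interval -0.35 to 0.52). The other 5 had 84 and 88 tags, a log2 ratio of 0.15 (interval -0.29 to 0.60). The 2 sets had overlapping intervals, and both held 0.

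From mESCs to PILECs the H3K4me3 tags at Myod1 and Des fell relative to the library totals. Myod1 went from 8.63 to 1.07 RPM in wt cells (log2 -3.02, interval -3.98 to -2.06) and from 6.82 to 1.36 RPM in menin-null cells (log2 -2.33, interval -3.21 to -1.45). Des went from 9.04 to 0.906 RPM in wt cells (log2 -3.30, interval -4.32 to -2.34) and from 8.25 to 0.848 RPM in menin-null cells (log2 -3.24, interval -4.29 to -2.33). The input moved in the same direction, by -1.38 at Myod1 (interval -2.38 to -0.24) and -2.31 at Des (interval -3.91 to -0.79) in wt cells, and by -0.83 and -1.08 in menin-null cells, where both intervals held 0. Over input, the log2 value went from 1.46 to -0.17 at Myod1 and from 2.01 to 1.02 at Des in wt cells. In menin-null cells it went from 1.93 to 0.43 and from 2.19 to 0.04, and the mESC and PILEC intervals overlapped in each case. Such overlap does not place a fall within counting error, and no interval of the difference was computed. Over all starts together, the share of input tags within 1 kb of a start was 7.50% in wt mESCs and 6.97% in menin-null mESCs, against 4.65% and 4.78% in PILECs, and the part of this difference in the ratios was not tested.

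Summed over the 10 members, H3K4me3 in PILECs over mESCs was -1.59 on the log2 scale in wt cells (interval -2.01 to -1.17) and -1.10 in menin-null cells (interval -1.50 to -0.70), and the input was -0.71 and -0.89. The median of all genes was -0.14 in wt and -0.33 in menin-null cells. At least 2-fold lower in PILECs were 6 of 10 members in wt cells, where 20.4% of all genes were, and 3 of 10 in menin-null cells, where 22.7% were. In wt cells the count was 4 with 0.5 tag added, with the median of all genes at 0, within 500 bp and within 2 kb, 3 when divided by the input ratio within 5 kb and 2 with the input subtracted. Myog and Myh3 were among the 6 only because of the 1 tag added to each count, and their RPM went from 1.64 in wt mESCs to 0.906 and 0.959 in wt PILECs. The same held for Myf5 among the 3 in menin-null cells, where its RPM went from 1.71 in mESCs to 0.905 in PILECs. With 1 tag added to each count, at least 2-fold higher were 1 of 10 in wt cells, where 6.65% were, and 0 of 10 in menin-null cells, where 7.81% were. The gene that was higher was Actc1, whose 0 tags in wt mESCs allow a level of up to 1.23 RPM, above its 1.07 RPM in wt PILECs, so no fold is given. By the interval, Myod1 and Des were lower in both genotypes, 2 of 10, where 24.5% of genes in wt and 39.1% in menin-null cells were lower, and 0 were higher, where 18.8% and 12.1% were. The comparisons between stages and those between genotypes share libraries, so their values are not independent of each other.

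A list of 18 further myogenic regulators had 13 genes at least 2-fold over input in wt and 13 in menin-null PILECs, beside 59.2% and 58.7% of all genes. The list also holds genes used late in muscle or in other tissues. Its summed level was 318 RPM in wt and 269 RPM in menin-null PILECs. By the interval, 7 of the 18 were lower in menin-null PILECs and 0 higher, beside 20.1% and 5.08% of all genes. At least 2-fold lower was 1, Lbx1, and at least 2-fold higher was 1, Mstn, beside 2.45% and 3.22% of all genes. Mstn had only 5 tags in wt and 11 in menin-null PILECs over 23 and 14 input tags. Its log2 ratio was 1.09, and its interval held 0 (-0.42 to 3.10). The median log2 ratio of the list was -0.29. Pax3, which marks the muscle progenitors of the somite, had 315 tags in wt and 155 in menin-null PILECs over 18 and 16 input tags, a log2 ratio of -0.93 (interval -1.22 to -0.65). Lbx1, needed by progenitors that migrate into the limb, had 152 and 58 tags over 10 and 13 input tags, a log2 ratio of -1.29 (interval -1.77 to -0.86). Eya4, a transcriptional cofactor of the Eya family, had 369 and 259 tags over 24 and 15 input tags, a log2 ratio of -0.42 (interval -0.66 to -0.19). Met, Cdon and Mef2a also had intervals below 0, with ratios from -0.39 to -0.34, and are named here because the count is small. Mef2c, a partner of the Myod1 family, had 373 and 351 tags (log2 -0.0011, interval -0.22 to 0.21), and Myf6, a relative of Myod1, had 9 and 10 tags over 16 and 10 input tags, both chosen after their values were seen.

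In mESCs 14 of these regulators had enough tags, and 1 was lower and 4 were higher by the interval in menin-null cells, beside 2.03% and 24.3% of all genes. Pax3 had 7 tags in wt mESCs and 28 in menin-null mESCs over 11 and 4 input tags, a log2 ratio of 1.33 (interval 0.24 to 2.91). Its interval in mESCs lay above 0 and that in PILECs below 0. Eya1, a relative of Eya4, was the regulator that was lower (37 and 29 tags, log2 -0.87, interval -1.64 to -0.14). Six4 was higher (126 and 285 tags, log2 0.64, interval 0.34 to 0.96), as was Mef2d (151 and 300 tags, log2 0.45, interval 0.17 to 0.75).

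Most markers of fibroblasts and feeder cells carried H3K4me3 in the same PILEC libraries. Of the 11 genes of that list, 10 were at least 2-fold over input in wt and 10 in menin-null PILECs, beside 59.2% and 58.7% of all genes. The exception in both was Lum, with 22 and 6 tags over 11 and 16 input tags. The summed level of the 11 was 123 RPM in wt and 105 RPM in menin-null PILECs. By the interval 6 were lower in menin-null PILECs, beside 20.1% of all genes, among them Lum (22 and 6 tags, log2 -1.63), Col1a2 (126 and 78 tags, log2 -0.60) and Col3a1 (115 and 76 tags, log2 -0.50), and 2 were higher, beside 5.08%, Thy1 (85 and 120 tags, log2 0.58) and Col6a1 (65 and 86 tags, log2 0.48). The part of the makeup of the cultures in the lower mark of the regulators was not tested.

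Further sarcomere genes were mostly like the members. Of 35 genes of the skeletal sarcomere and of excitation, 7 were at least 2-fold over input in wt and 7 in menin-null PILECs, beside 59.2% and 58.7% of all genes, and the median log2 ratio of menin-null over wt PILECs was -0.0011. By the interval, where 20.1% of all genes were lower and 5.08% higher, 1 was lower, Car3, a carbonic anhydrase of slow muscle (144 and 89 tags, log2 -0.60, interval -1.01 to -0.22), and 1 was higher, Tpm1, a tropomyosin that is also used outside muscle (472 and 523 tags, log2 0.23, interval 0.05 to 0.42). In mESCs Tpm1 (63 and 139 tags, log2 0.60) and Tpm3 (100 and 186 tags, log2 0.36) were the 2 of 13 genes with enough tags that were higher by the interval, beside 24.3% of all genes. Of 13 genes of the cardiac sarcomere and its secreted products, 2 were at least 2-fold over input in wt and 3 in menin-null PILECs, and 1 was lower by the interval, beside the same 20.1%, Myl4, an atrial and embryonic myosin light chain (1109 and 947 tags, log2 -0.14, interval -0.27 to -0.02). The median log2 ratio of that list was 0.27.

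Of 10 cardiac regulators, 7 were at least 2-fold over input in wt and 8 in menin-null PILECs, near the 59.2% and 58.7% of all genes, and the median log2 ratio was 0.08. Gata4, a factor of heart and endoderm, had 77 tags in wt and 151 in menin-null PILECs, a log2 ratio of 1.05 (interval 0.65 to 1.47). Gata6 had 149 and 179 tags (log2 0.35, interval 0.03 to 0.67), and in mESCs it was lower in menin-null cells (33 and 26 tags, log2 -0.86, interval -1.68 to -0.09). These 2 were the cardiac regulators that were higher in menin-null PILECs by the interval, and 0 were lower, beside 5.08% and 20.1% of all genes.

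**Figure D5:**
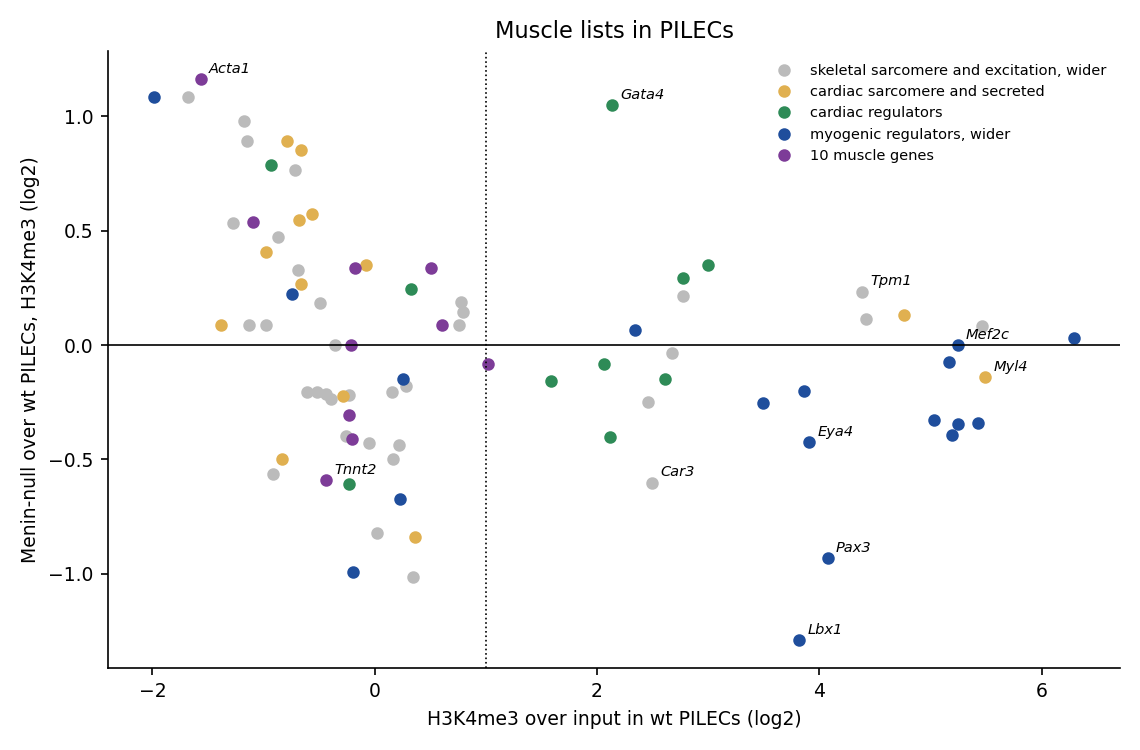
Menin-null over wt log2 ratio of H3K4me3 in PILECs against H3K4me3 over input in wt PILECs (log2), 1 point per gene, for the 10 muscle genes and the 4 further muscle and heart lists. The members lie at or left of the dotted line of 2-fold over input, Pax3 and Lbx1 lie to its right at -0.93 and -1.29, and Gata4 lies at 1.05.

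On the array list were 16 of the 76 genes of these 4 further lists. Of the 16, 8 were at least 2-fold over input in wt PILECs and 6 had an interval below 0 in menin-null PILECs and 0 above it, with a median log2 ratio of -0.16, beside 59.2% of all genes so marked, 20.1% below 0 and 5.08% above. Of the 60 that were not on it, 21 were at least 2-fold over input, 3 had an interval below 0 and 3 above it, with a median of -0.0011. The array list was drawn from the same kinds of cells and is not independent evidence of a direction.

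The patterns of Myog and Actc1 over the 4 H3K4me3 libraries were those of genes with few tags. By the distance of log2(RPM + 0.1) over the 4 libraries, among 24064 genes outside the lists, the closest to Myog were Gm12493 (distance 0.079), Arhgap9 (0.109) and Gm12868 (0.178). The closest to Actc1 were Gm7713 (0.0887), 4930439A04Rik (0.138) and Ankrd36 (0.151). There were 514 genes within a distance of 1 of Myog and 305 within 1 of Actc1, so neither pattern is particular to its gene.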

How the data were processed

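H3K4me3 ChIP-Seq and input libraries, 8 in all with 1 for each condition, were grouped by genotype, cell type and antibody as labelled. The authors deposited the start and end of every tag, with no normalization: 36-bp reads aligned to mm9, kept at unique locations with at most 2 mismatches. The aligner is not given in the sources used here. Between 1.04% and 1.81% of the tags of a library listed more than 2 mismatches and were kept, as were tags at a repeated position and strand (1.77% to 11.5%). The score that the authors deposited beside each tag, a whole number from 4 to 119, was checked and not used, since its meaning is not given in the sources used here.

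Each tag was moved 125 bp to the middle of the 250-bp fragment stated in the methods. Tags within 1 kb of a start were counted for 26212 protein-coding, lincRNA and processed-transcript genes of GENCODE vM1 on mm9, at the start with most H3K4me3 where a gene had several (75530 starts), and divided by the library total in tags per 1000000 (RPM). A log2 ratio was taken with 1 tag added, and summed counts without it. Its 95% interval came from exact conditional binomial (Clopper-Pearson) limits, and that of a difference between stages from a Wald interval. A gene needed 10 tags in the 2 libraries together to be called, by 2-fold or by an interval that left out 0. Totals of 2432377 to 18773635 tags per H3K4me3 library set the precision, and a count of 0 was read as up to 3 tags. Reads without molecular identifiers are not independent molecules, so intervals cover counting error only.

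The 10 members and the gene lists were chosen with earlier results of these data known. Besides the members and Men1, at most 3 genes per list, direction and genotype comparison were named, those with the largest fold among genes with an interval leaving out 0, and the 3 genes closest to Myog and to Actc1 over the H3K4me3 libraries. Other genes were named after their values were seen. The values of 1 gene counted in a list are not reported here. Sox1 and Map2 were not found in the annotation under these symbols. Alternatives changed the tag position, duplicates, mismatches, window, start, scaling, use of input, tags added, minimum and Poisson threshold. Ratios, intervals and calls were tested on gene counts drawn from Poisson distributions, and the counting of tags was not. The known changes were placed only at genes with more expected tags than any member had. Python 3.11.15, numpy 2.4.6, pandas 2.3.3, scipy 1.17.1 and matplotlib 3.10.9 were used. The expression arrays of the study were used as a list of gene names only.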

Additional observations from a re-analysis of the deposited data

How the results depend on the processing

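For the 10 muscle genes, the ratio of summed tags of menin-null over wt cells kept its sign under all alternatives in mESCs, with an interval below 0 under both other scalings. In PILECs it kept its sign under all but subtraction of the input, where it was -0.61 on the log2 scale from few remaining tags. The input was subtracted gene by gene, with negative values set to 0, so sums after subtraction rest only on genes above their input. Of 480 values of single members under an alternative, 457 stayed within the interval of the reported value, and the 23 that did not came from subtracting the input or dividing by it. The sign of several members in PILECs turned, for example within 2 kb at Tnnt2 (0.26), Des (0.09) and Myh3 (-0.05), and within 500 bp at Des (0.26) and Tnni1 (-0.07). With the input subtracted it turned at Myog (-2.75), Myf5 (1.83) and Tnni1 (-1.40), among others. With the input subtracted, PILECs over mESCs was -3.58 for the sum and -3.13 for the median in wt cells and -4.12 and -2.33 in menin-null cells, with 2 members at least 2-fold lower and 0 higher in wt cells. Divided by the input ratio within 5 kb, these sums were -0.91 and -0.48, with 3 members lower in wt and 3 higher in menin-null cells. Within 2 kb the sum in wt cells was -1.15, and within 500 bp that in menin-null cells was -1.60 with 5 members lower, and 0 were higher in wt cells. At least 2-fold higher in menin-null PILECs over mESCs were also 1 with the 5′ end of the tag, 2 within 2 kb, 3 when scaled by tags near starts, 2 with the median of all genes at 0 and 2 with 0.5 tag added.

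At least 2-fold higher in menin-null over wt PILECs were 0 members within 2 kb, 0 when divided by the input ratio and 0 with the input subtracted, and at least 2-fold lower was 1 at RefSeq starts, Tnnt2, an alternative chosen after seeing the data, as were all those for H3K4me3 over input. H3K4me3 over input in wt mESCs, summed over the members, turned to -0.024 on the log2 scale within 2 kb, with 1 member at least 2-fold over input. In wt PILECs 0 members were at least 2-fold over input with the 5′ end of the tag, with 1 tag per position, within 500 bp and within 2 kb. Around the 10 starts 10 windows were marked in menin-null PILECs at a Poisson p of at most 1e-03. Of all genes in menin-null over wt mESCs, 0.908% were at least 2-fold lower with at least 20 tags and 10.4% with no minimum, and 5.45% were higher with no minimum. In PILECs 1.73% were higher with at least 20 tags. The cause of these differences was not tested. No paired analysis was possible because each condition had 1 library, and depth limits single members in mESCs, where 8 of 10 had 6 H3K4me3 tags or fewer.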

Other observations

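Smooth muscle and paraxial mesoderm genes, which share regulators or an origin with skeletal muscle, were examined with the same rules. Of all genes, 59.2% in wt and 58.7% in menin-null PILECs were at least 2-fold over input, and by the interval 20.1% were lower and 5.08% higher in menin-null PILECs, with 24.3% higher in menin-null mESCs. Of 8 smooth muscle genes, 2 were at least 2-fold over input in each PILEC library, and 1 was lower by the interval in menin-null PILECs, Mylk, the myosin light chain kinase (147 and 86 tags, log2 -0.68, interval -1.09 to -0.29). Of 10 paraxial mesoderm genes, 7 were at least 2-fold over input in each PILEC library and 2 were lower by the interval, shares near those of all genes, with a median log2 ratio of -0.14 in menin-null over wt PILECs. Meox2, a somite factor, had 116 and 63 tags (log2 -0.78, interval -1.26 to -0.34), and Tcf15, also of the somite, had 196 and 126 tags (log2 -0.55, interval -0.89 to -0.22), while Foxc2 was higher (142 and 209 tags, log2 0.64, interval 0.33 to 0.96). In mESCs Tcf15 was higher in menin-null cells (130 and 310 tags, log2 0.72, interval 0.42 to 1.03), 1 of 8 genes with enough tags, the direction opposite to that in PILECs, as for Pax3.

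Neural, islet and pluripotency markers were counted in the same way, beside the same shares of all genes (20.1% lower and 5.08% higher in menin-null PILECs). Of 8 neural genes, 1 was lower, Nes (log2 -0.39), and 1 was higher, Gfap (log2 1.19). Gfap had 12 tags in wt and 27 in menin-null PILECs over 25 and 26 input tags, so it was not marked over input in either. Of 12 islet genes, Mafa (log2 -0.48) and Neurod1 (log2 -0.38) were lower, and Nkx2-2 (log2 0.52) and Nkx6-1 (log2 0.49) were higher. These counts of 1 or 2 genes are too small to set the islet or neural list apart from all genes. Of 8 pluripotency genes Nanog was lower (log2 -0.91), and in mESCs Klf4 (log2 1.01), Sox2 (log2 0.49) and Pou5f1 (log2 0.34) were higher in menin-null cells, 3 of 8, beside 24.3% of all genes and a median log2 ratio of all genes of 0.21.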
